A study of Mus musculus with 9 samples.

Results

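The genes described here are 8 receptors that steer thymocytes: the chemokine receptors Ccr9, Ccr7, Ccr4, Ccr6, Cxcr4, Cxcr5 and Cxcr6 and the sphingosine-1-phosphate receptor S1pr1. They were chosen by name from 21887 protein-coding genes, with earlier results of these data known. Every peak of the 6 deposited lists that lay in a gene's span or within 50 kb of it was taken as its peak. This gave 103 of the 79216 peaks on the 21 main chromosomes, in build mm10. The study mapped 2 E proteins, E2A (from the gene Tcf3) and HEB (from Tcf12), by chromatin immunoprecipitation and sequencing in mouse thymocyte precursors. All cells came from BALB/c, Rag2-deficient fetal liver progenitors grown on OP9-DL1, a stromal line that presents a Notch ligand. Rag2-deficient cells cannot rearrange their own antigen receptor genes. The 3 stages were DN3 cells without a transduced receptor, harvested at day 7, and CD73- and CD73+ cells sorted 3 days after transfer of the KN6 gamma-delta T cell receptor. The sort took Thy1+ YFP+ CD4- CD8- CD24+ cells, and the submitters regard the CD73- cells as still open to the alpha-beta lineage and the CD73+ cells as gamma-delta committed. Each stage had 1 E2A, 1 HEB and 1 input library, and both antibodies were rabbit sera raised against the C-terminus of the factor. DN3 cells differ from the sorted cells in the receptor, the transduction, the extra culture and the sort at once, and these cannot be told apart. Fixation, 10 min in 1% formaldehyde, is given for the CD73- and CD73+ cells and not for the DN3 cells.

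E proteins bind DNA as dimers at E-boxes, short sites of the form CANNTG, and Id proteins, which T cell receptor signals induce, block them. Chemokine receptors are G protein-coupled receptors that pull cells along gradients of their ligands. CCR9 and CXCR4 hold early precursors in the thymic cortex, CCR7 and CCR4 draw maturing cells to the medulla, and S1PR1 lets mature thymocytes leave for the blood. CCR6, CXCR5 and CXCR6 are better known for homing in the periphery: CCR6 marks interleukin-17-producing gamma-delta T cells, CXCR5 takes cells to B cell follicles, and CXCR6 marks effector and innate-like T cells.

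The duplicates of a group were concatenated before deposit, so each group has 1 list, no value has a replicate error, and no test between groups was possible. The score of a peak is the authors' MACS score, minus 10 times the log10 of its p-value. It is at least 50 in these lists, it ranks peaks within a list only, and a peak of 100 or more is called strong here. Read depth is unknown from the lists. A gene without a peak had none called, which does not show that the factor was absent. The lists held 12357, 12434 and 23205 E2A peaks in DN3, CD73- and CD73+ cells, and 11619, 9407 and 10194 HEB peaks. The CD73+ E2A list stood apart, with 16.8% of its peaks shared with at least 1 further list. The next lowest share was 31.8%, in CD73- E2A. Which CD73+ list holds which factor could not be checked from the peaks, so gene counts and counts of kept DN3 peaks are also given with the CD73+ E2A and HEB lists exchanged.

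Of the 8 genes, 5 had a start site in the RefSeq promoter table (GRCm38.p6, the same assembly as mm10), and at Ccr9, Ccr4 and Cxcr4 a called peak covered part of the promoter window. Ccr7, Cxcr5 and S1pr1 were not matched in that table. The 3 windows, each of 300 bases from 250 before the start site on, are shown because they are the receptors' own promoters with a peak. A window of another gene, Gm33799, lay under the DN3 E2A peak of 111 counted for Ccr6 and is not shown. Capitals mark every CANNTG, which reads the same on both strands.
Ccr9 promoter, chr9:123766961-123767260, plus strand: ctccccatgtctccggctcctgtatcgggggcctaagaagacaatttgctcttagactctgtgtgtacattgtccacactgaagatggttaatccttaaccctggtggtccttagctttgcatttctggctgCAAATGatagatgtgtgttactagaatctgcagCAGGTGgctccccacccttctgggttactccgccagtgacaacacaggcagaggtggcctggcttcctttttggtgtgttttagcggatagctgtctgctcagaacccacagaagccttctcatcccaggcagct
Ccr4 promoter, chr9:114496495-114496794, minus strand: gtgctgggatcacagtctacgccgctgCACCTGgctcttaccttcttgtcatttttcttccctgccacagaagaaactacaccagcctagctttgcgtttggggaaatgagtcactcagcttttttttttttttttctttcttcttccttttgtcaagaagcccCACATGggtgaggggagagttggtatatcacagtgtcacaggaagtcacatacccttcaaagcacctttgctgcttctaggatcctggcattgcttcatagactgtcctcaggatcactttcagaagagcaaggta
Cxcr4 promoter, chr1:128592250-128592549, minus strand: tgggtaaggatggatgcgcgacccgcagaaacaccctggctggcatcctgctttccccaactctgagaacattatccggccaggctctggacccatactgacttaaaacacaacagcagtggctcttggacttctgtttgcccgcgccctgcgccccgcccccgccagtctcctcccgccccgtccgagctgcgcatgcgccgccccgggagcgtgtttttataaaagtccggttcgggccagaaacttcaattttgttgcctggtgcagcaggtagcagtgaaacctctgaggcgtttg
The Ccr9 window held 2 E-boxes, CAAATG at -118 and CAGGTG at -85 (first base, counted from the start site), and both lay within a DN3 E2A peak scoring 73.4. The Ccr4 window also held 2, CACCTG at -223 and CACATG at -86, and a CD73+ HEB peak of 74.2 covered the first and not the second. A DN3 E2A peak of 61.8 covered 213 bp of the Cxcr4 window, which held no CANNTG, and the rest of that 527-bp peak lay further upstream. Of the 32851 promoter windows on the main chromosomes 72.3% held a CANNTG, 20.2% a CAGGTG or its reverse complement CACCTG, and 16.3% a CAGCTG, so an E-box in such a window is common. None of the members' windows held CAGCTG, and the windows of Ccr6 (from both of its start sites) and Cxcr6 held no peak. All 3 promoter peaks were below 100 and stood in 1 list each. Over all windows, DN3 E2A peaks covered 2.23% and CD73+ HEB peaks 1.5%, and the other 4 lists covered 0.347% (CD73- E2A), 0.286% (CD73+ E2A), 2.43% (DN3 HEB) and 0.496% (CD73- HEB). The higher peaks of the receptors, described next, lay elsewhere.

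In DN3 cells all 8 genes had a peak of each factor within 50 kb, against 49.6% of all protein-coding genes for E2A and 48.1% for HEB. In CD73- cells the numbers were 7 of 8 for E2A (41.3% of all genes) and 8 of 8 for HEB (37.9%). In CD73+ cells they were 4 of 8 for E2A (53.0% of all genes) and 8 of 8 for HEB (41.8%). The CD73+ E2A count was thus near the share over all genes, and the other 5 were above it. Because the genes were chosen with earlier results of these data known, these comparisons with all genes are not independent of the data. With those 2 lists exchanged the CD73+ counts were 8 for E2A and 4 for HEB. Strong peaks gave a like contrast between CD73+ E2A and the other 5 lists. The strong CD73+ E2A count, 1 of 8 genes (12.5%), was again near the share over all genes. For E2A, 8, 6 and 1 of the 8 genes had one in DN3, CD73- and CD73+ cells, where 27.5%, 7.08% and 9.11% of all genes did. For HEB the counts were 7, 6 and 8, where 22.2%, 9.08% and 15.8% of all genes did. The members have spans of 4.10 to 22.5 kb, and among the 8241 genes with spans in that range the shares with a strong peak ran from 7.09% to 27.5% and those with any peak from 34.4% to 49.5%.

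Closer to the genes the counts were smaller. Within 10 kb, 6, 2 and 1 of the 8 had an E2A peak in DN3, CD73- and CD73+ cells, where 26.2%, 17.6% and 23.7% of all genes did, and 5, 3 and 6 had a HEB peak, where 24.3%, 17.1% and 20.2% did. Inside the gene itself 4, 2 and 1 had an E2A peak, against 17.4%, 11.0% and 14.4% of all genes. A HEB peak lay inside 3, 3 and 5, against 16.0%, 10.7% and 12.8%. Among the 8241 genes with spans in the members' range all these shares were lower. Within 10 kb the E2A shares were 20.7%, 11.0% and 14.2%, and the HEB shares 19.0%, 11.3% and 14.7%. Inside the span they were 9.42%, 3.56% and 4.31% (E2A), and 8.41%, 3.98% and 6.19% (HEB). The CD73+ E2A count, 12.5% and Cxcr5 alone, was below the matched share within 10 kb and above it inside the span. Cxcr5 had a peak inside its span in all 6 lists and Cxcr4 in 5, while S1pr1 and Cxcr6 had none. The genes are not independent here, because the windows of Ccr9 and Cxcr6 overlap on chromosome 9 and all 7 peaks counted for Cxcr6 are also peaks of Ccr9.

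**Figure D1:**
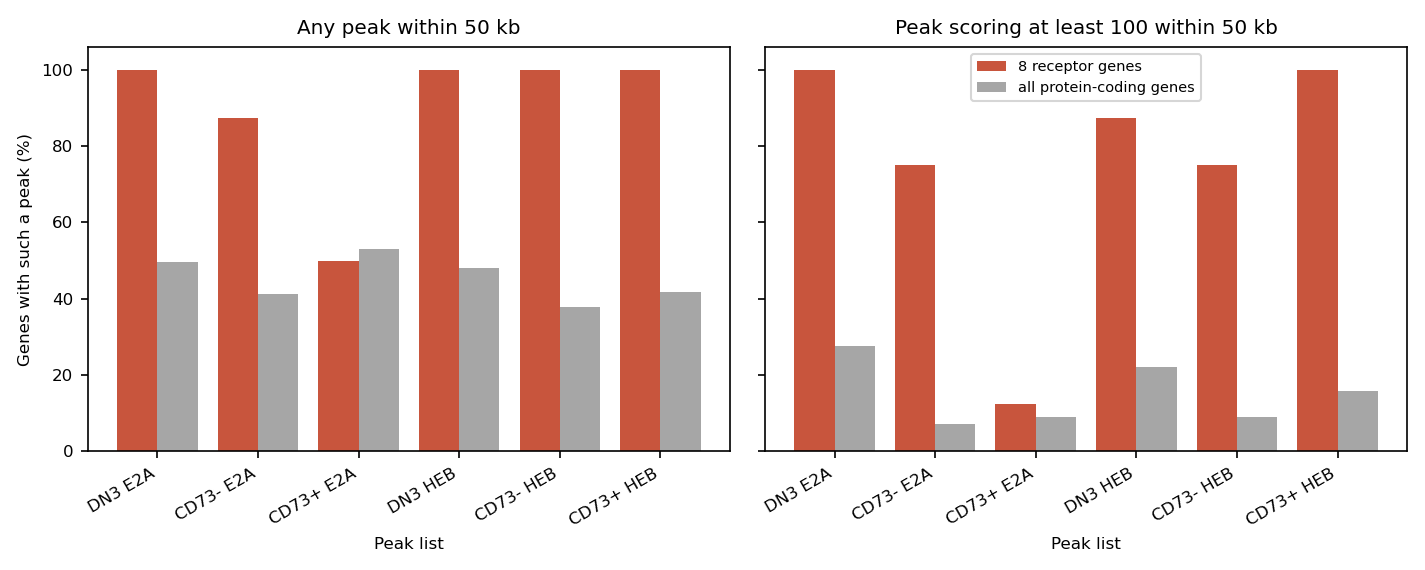
Share of genes (%) with any peak (left) or a peak scoring at least 100 (right) within 50 kb, by peak list, for the 8 receptor genes (red) and all 21887 protein-coding genes (grey). The receptor bars stand above the grey bars except for any peak in CD73+ E2A, found at 4 of the 8 receptors and 53.0% of all genes. For strong CD73+ E2A peaks the bars are close, with 1 of the 8 receptors (12.5%) and 9.11% of all genes.

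Peaks at the receptors numbered 26, 14 and 11 for E2A in DN3, CD73- and CD73+ cells, and 20, 14 and 18 for HEB. Their median scores were 112, 57.9 and 62.0 for E2A, where the medians of the whole lists were 82.1, 58.3 and 61.5. For HEB the medians were 99.6, 68.2 and 238, where the whole lists had 70.9, 61.5 and 63.2. Of the receptors' E2A peaks, 15 of 26 were strong in DN3 cells (57.7%), 5 of 14 in CD73- cells (35.7%) and 1 of 11 in CD73+ cells (9.09%), against 40.6%, 8.79% and 7.02% of the whole lists. Of their HEB peaks, 10 of 20, 6 of 14 (42.9%) and 11 of 18 (61.1%) were strong, against 30.7%, 14.3% and 24.1%. By median the receptors' peaks lay clearly above their list for DN3 E2A, DN3 HEB and CD73+ HEB, and by the share of strong peaks the CD73- lists stood further above theirs, as a ratio, than these did. In 69 of the 103 peaks the nearest protein-coding gene was a member, and the other 34 lay nearer to a neighbouring gene (1 peak in both Cxcr5 and Bcl9l was counted as the member's).

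**Figure D2:**
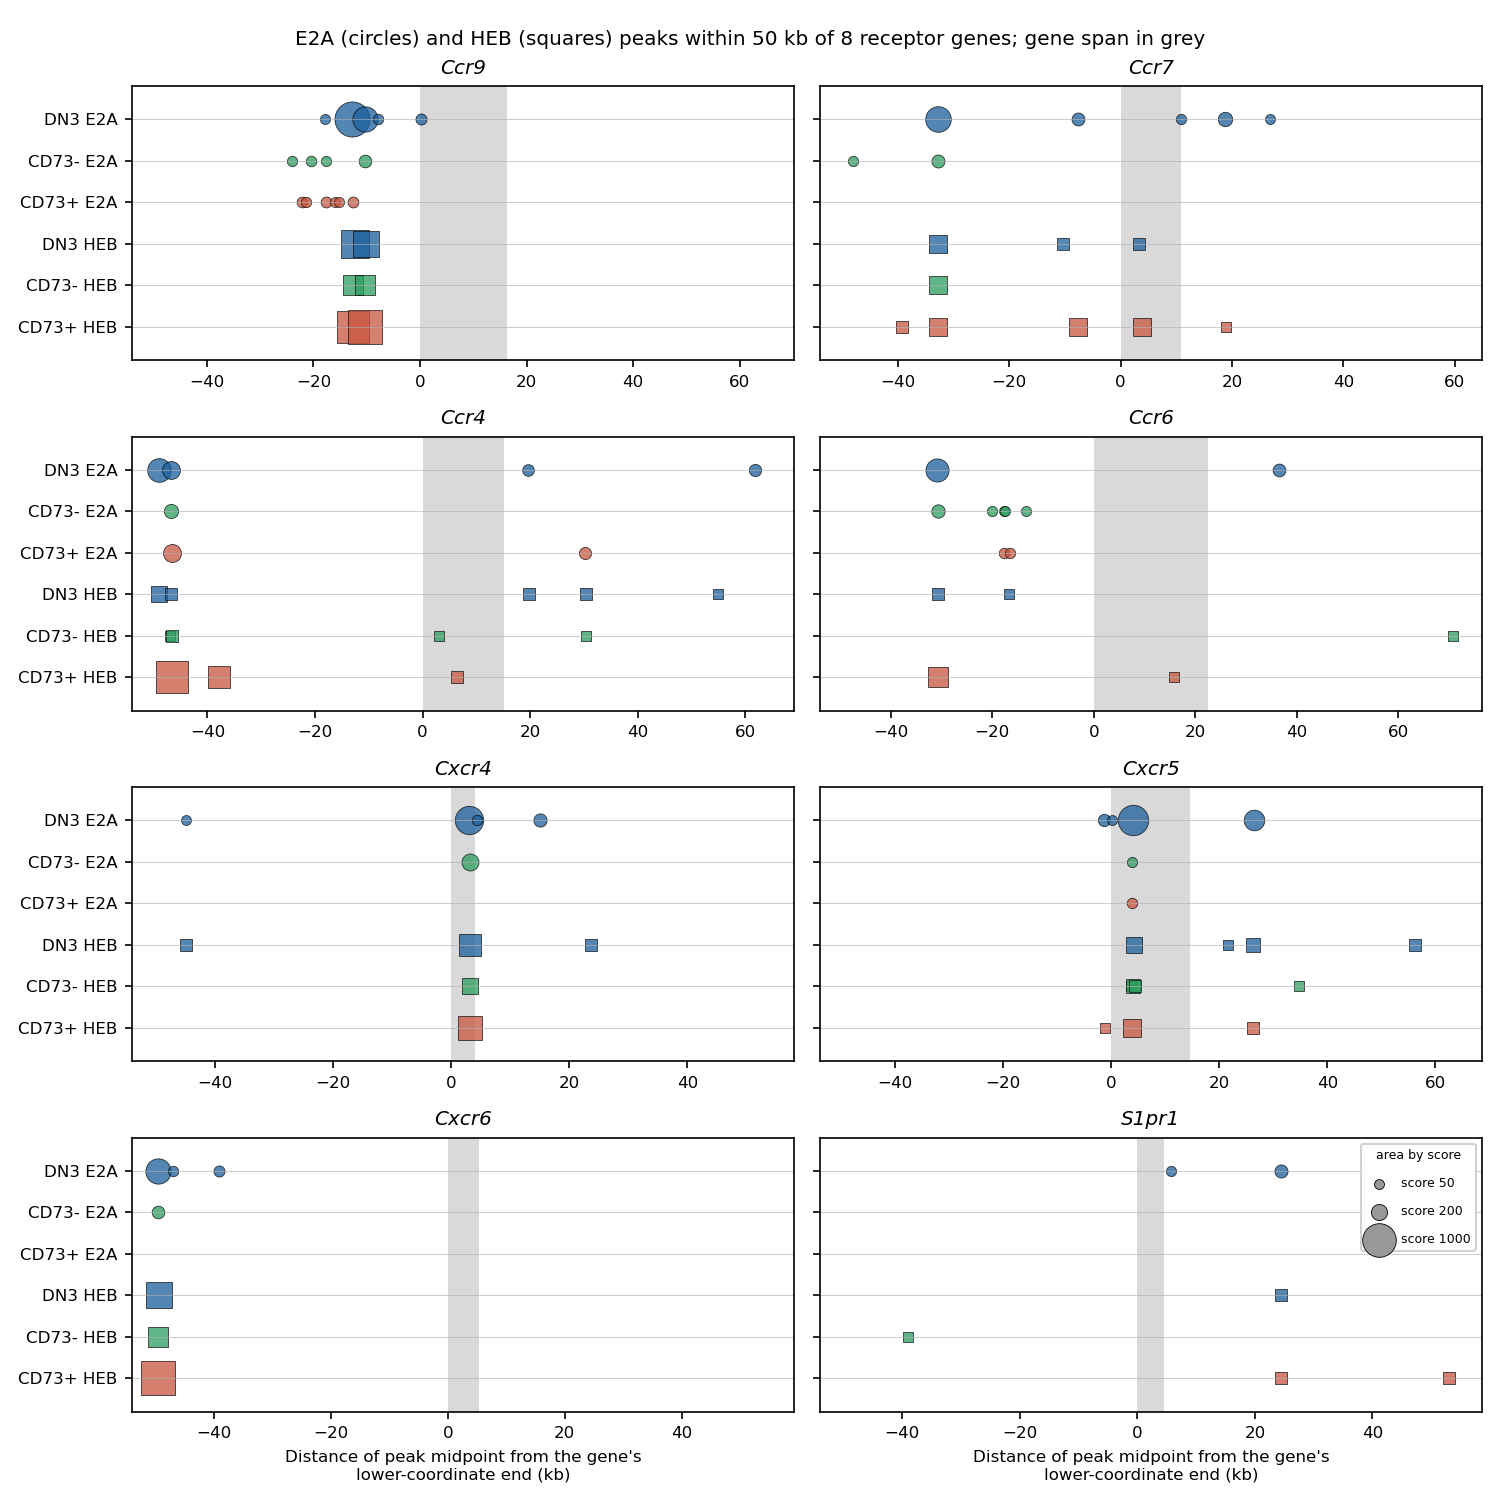
Peaks within 50 kb of each receptor gene, placed by the distance of their midpoint from the gene's lower-coordinate end (kb), with 1 row per list. Circles are E2A and squares HEB, colours give the stage, the area grows with the score and the grey band is the gene's span. The highest peaks of Ccr9 lie 9 to 12 kb before the gene, those of Cxcr4 and Cxcr5 inside the gene, and no peak lies within 38 kb of Cxcr6.

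Ccr9 encodes the receptor for CCL25, a chemokine of thymic epithelium, and it had the highest DN3 E2A and HEB peaks of the 8 genes. The gene lies on chromosome 9 at 123767211 to 123783457, on the plus strand, and 2 regions upstream of its start carried the high peaks. The farther region, at 123753901 to 123756034, had a DN3 E2A peak of 1094, rank 252 of 12357. No CD73- E2A peak was called there, and the CD73+ E2A peak scored 68.5. The same region had HEB scores of 684 (DN3), 359 (CD73-) and 903 (CD73+), ranks 231, 235 and 123 of their lists. All 5 peaks shared a stretch of 248 bp, 123754484 to 123754731. The nearer region, at 123756302 to 123757988, had E2A peaks of 549.7 in DN3 and 108 in CD73- cells and none in CD73+ cells. Its HEB peaks scored 559.9, 308 and 1079, and the last was rank 90 of 10194, the highest CD73+ HEB peak of any member. So both regions had a HEB peak at all 3 stages, and each lacked an E2A peak at a different stage.

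Lower peaks lay around these regions. Another region, at 123749200 to 123749716, held low E2A peaks at every stage, 52.2 (DN3), 56.6 (CD73-) and 68.0 (CD73+), and no HEB peak. Beside these, the CD73+ E2A list had 4 peaks of 53.0 to 65.6 between 15.0 and 22.1 kb upstream that overlapped no peak of another list, and the CD73- E2A list had 2, of 58.3 and 62.9. DN3 E2A had single peaks of 60.7 and, over the promoter shown above, 73.4. Apart from the promoter peak no list had a peak inside the gene.

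Cxcr4 encodes the receptor for CXCL12, which holds precursors in the cortex and acts with the pre-T cell receptor. It is a gene of 4.10 kb on chromosome 1, at 128588199 to 128592299 on the minus strand, and a single region within its span, at 128590598 to 128592127, carried peaks in 5 lists. The E2A scores there were 703 in DN3 and 226 in CD73- cells, ranks 507 of 12357 and 332 of 12434, with no CD73+ E2A peak. The HEB scores were 426, 199 and 488 in DN3, CD73- and CD73+ cells, ranks 496, 535 and 309. The 5 peaks had midpoints within 104 bp of each other and shared 428 bp, 128591117 to 128591544. The promoter peak of 61.8 lay just upstream and was seen in DN3 E2A alone. Outside the gene, DN3 peaks were called for E2A (122) at 10.6 kb, for HEB (80.1) at 19.1 kb and for both (50.7 and 83.2) about 44.4 kb away on the other side, and none of these had a CD73- or CD73+ peak. No other protein-coding gene was nearer to any of the 10 peaks.

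Ccr7, the receptor for CCL19 and CCL21 in the medulla, spans 99144199 to 99155077 on chromosome 11. Its most recurrent region, at 99110808 to 99112028, had E2A peaks of 564 and 116 in DN3 and CD73- cells, none in CD73+ cells, and HEB scores of 235 (DN3), 251 (CD73-) and 269 (CD73+). That region lay 32.2 kb from Ccr7 and 21.5 kb from Tns4, and Tns4 was the nearer gene. Closer to Ccr7 than this region no CD73- peak of either factor was called. At 99136327 to 99136927, 7.27 kb away, a CD73+ HEB peak of 244 overlapped a DN3 E2A peak of 114. Inside the gene, at 99146916 to 99148221, a CD73+ HEB peak of 232 overlapped a DN3 HEB peak of 90.0. On the other side, 7.38 kb away, a CD73+ HEB peak of 66.8 overlapped a DN3 E2A peak of 151. Single peaks were also called 10.2 kb away for DN3 HEB (104) and over the gene's higher-coordinate limit for DN3 E2A (57.6). A further 3 of 52.7 to 96.8 lay 15.6 kb or further away. Each of the 3 paired regions was thus found in 1 DN3 list and in CD73+ HEB, and a CD73+ E2A peak was called nowhere in the Ccr7 window.

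Ccr4, the receptor for CCL17 and CCL22, spans 114490316 to 114505476 on chromosome 9, and its high peaks lay inside the neighbouring gene Glb1, a lysosomal galactosidase. At 114443077 to 114444077, 46.2 kb from Ccr4, all 6 lists had a peak. The E2A scores were 255, 147 and 259 in DN3, CD73- and CD73+ cells, and the HEB scores were 98.7, 101 (with a second peak of 52.9) and 959. The CD73+ peaks were rank 200 of 23205 for E2A and rank 109 of 10194 for HEB, and this was the only strong CD73+ E2A peak among the 103. A second Glb1 region, 48.2 kb away, had DN3 peaks only, of 476 for E2A and 219.5 for HEB. Another, at 114452154 to 114452753, had a CD73+ HEB peak of 377 and no other. Within Ccr4 itself only weak HEB peaks were called, 60.2 in CD73- cells and the promoter peak of 74.2 in CD73+ cells. The start site of that promoter window, 114496544 on the minus strand, lies inside the span, and distances here are counted from the span. On the other side, toward Trim71, DN3 peaks of 85.9 for E2A and 115 for HEB lay 4.02 and 3.98 kb from Ccr4 and were nearer to Trim71. Inside Trim71, peaks of 96.8 for CD73+ E2A, 75.5 for DN3 HEB and 51.0 for CD73- HEB overlapped, and DN3 peaks of 99.8 for E2A and 60.0 for HEB each stood alone.

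S1pr1, the egress receptor, had the fewest peaks of the members with peaks of their own, 6. It spans 115710433 to 115715055 on chromosome 3, and no peak lay inside it. A region at 115734360 to 115735448, 19.3 kb away, had a CD73+ HEB peak of 103, a DN3 E2A peak of 119 and a DN3 HEB peak of 91.8, within 71 bp of each other by midpoint. These ranked in the top 23.4%, 33.9% and 34.3% of their lists, far below the leading peaks of Ccr9 or Cxcr4. A DN3 E2A peak of 56.7 stood 852 bp from the gene, a CD73- HEB peak of 61.6 stood 38.9 kb away and a CD73+ HEB peak of 85.7 stood 48.3 kb away, each alone. The CD73- and CD73+ E2A lists had no peak within 50 kb of S1pr1, which no other member lacked in both.

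Ccr6, the receptor for CCL20, spans 8236041 to 8258519 on chromosome 17 and had its high peaks in 1 region, at 8204788 to 8205901. The E2A scores there were 454 and 125 in DN3 and CD73- cells, with none in CD73+ cells, and the HEB scores were 326 in CD73+ and 101 in DN3 cells, with none in CD73- cells. The region lay 30.1 kb from Ccr6 and 8.31 kb from Cep43, its nearest gene. A DN3 E2A peak of 111 lay 13.7 kb from Ccr6 on the other side, nearer to Mpc1. Between 13.3 and 20.0 kb upstream of Ccr6 there were 7 peaks of 51.0 to 62.0, from the CD73- E2A, CD73+ E2A and DN3 HEB lists, and within the gene 1 CD73+ HEB peak of 58.3. A CD73- HEB peak of 54.6 lay 48.2 kb away, nearer to Sft2d1.

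Cxcr5, the receptor for CXCL13, spans 44511787 to 44526444 on chromosome 9, and within it a region at 44515297 to 44516512 had peaks in all 6 lists. The E2A scores were 811.5, 56.3 and 60.3 in DN3, CD73- and CD73+ cells. The DN3 peak was rank 409 of 12357, while the CD73- and CD73+ peaks stood 59.0% and 54.6% of the way down their lists. The HEB scores were 199, 118 and 280.0. In CD73- cells HEB had 3 separate narrow peaks there, of 155 to 263 bp, where the DN3 lists each had 1 peak of 1096 or 1136 bp. A second region, 11.2 kb from the gene on its higher-coordinate side, had a CD73+ HEB peak of 72.1 and no CD73- peak. Its DN3 peaks scored 351 for E2A and 142 for HEB. At the other end, where Cxcr5 meets Bcl9l, there were a CD73+ HEB peak of 53.1 and DN3 E2A peaks of 100.2 and 50.6. Another 3 single HEB peaks of 57.5 to 80.1 lay on the higher-coordinate side, and that of 80.1 was nearer to Ddx6.

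Cxcr6, the receptor for CXCL16, had no peak of its own. It spans 123806477 to 123811754 on chromosome 9, inside the span of Fyco1, and the nearest peak in any list was the DN3 E2A peak at the Ccr9 promoter, 38.8 kb away. Its other peaks were the nearer upstream region of Ccr9 and a DN3 E2A peak of 60.7. The edge of the window decides what is counted here: that Ccr9 region lay 48.5 to 49.4 kb from Cxcr6, just inside, and the farther one, with peaks of up to 1094, lay 50.4 to 51.7 kb away, just outside.

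**Figure D3:**
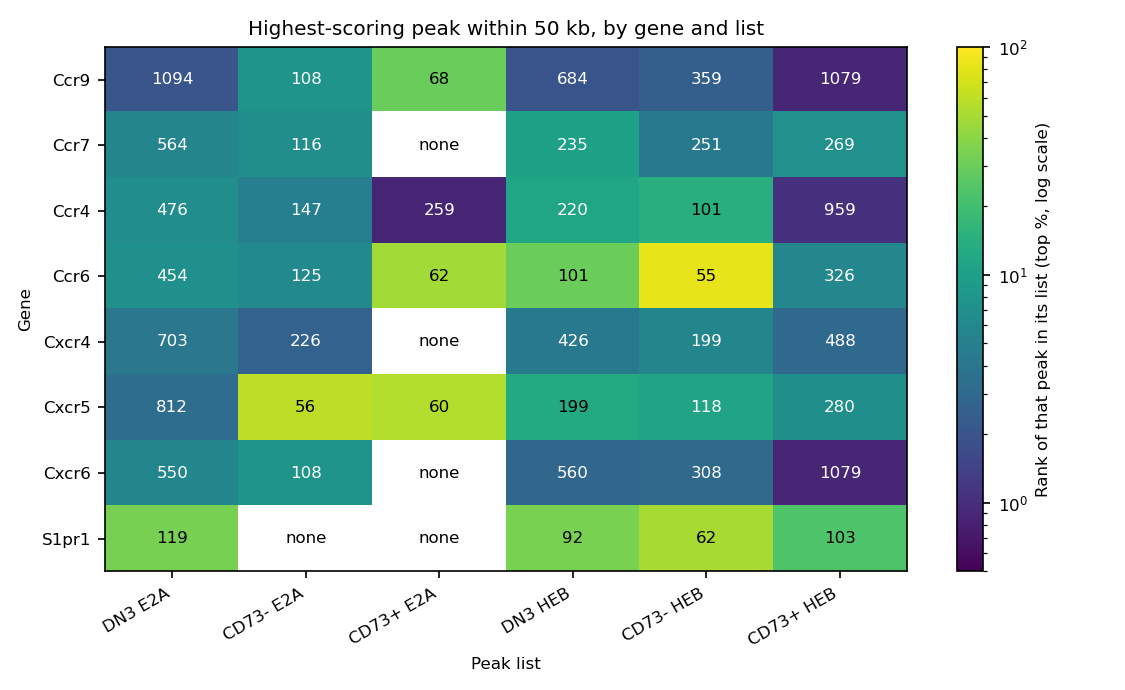
Score of the highest peak within 50 kb of each gene in each list (number), coloured by the rank of that peak within its list (top %, log scale), with white cells where none was called. Ccr9 leads in DN3 E2A at 1094 and in CD73+ HEB at 1079, S1pr1 has no CD73- or CD73+ E2A peak, and the Cxcr6 values are those of peaks nearest Ccr9.

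When peaks of all lists were merged where they share at least 1 bp, the 103 peaks formed 54 regions. Of these, 20 (37.0%) had peaks in 2 or more lists, against 17.7% of all 58451 regions, and 7 (13.0%) had peaks in 4 or more, against 3.64%. Those 7 were both upstream regions of Ccr9, the region in Cxcr4, the region in Cxcr5, and the distant regions counted for Ccr7, Ccr4 and Ccr6. Within them, DN3 E2A, DN3 HEB and CD73+ HEB peaks were present in all 7, CD73- E2A peaks in 6, CD73- HEB peaks in 6 and CD73+ E2A peaks in 3. Regions picked for peaks in 4 or more of the 6 lists must hold most lists. The make-up by list of all 2130 such regions was not computed, so these counts are not a trait of the receptors. The DN3 peaks were wider, with medians of 687 bp for E2A and 959.5 bp for HEB at the receptors, against 154 to 421.5 bp in the other lists.

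**Figure D4:**
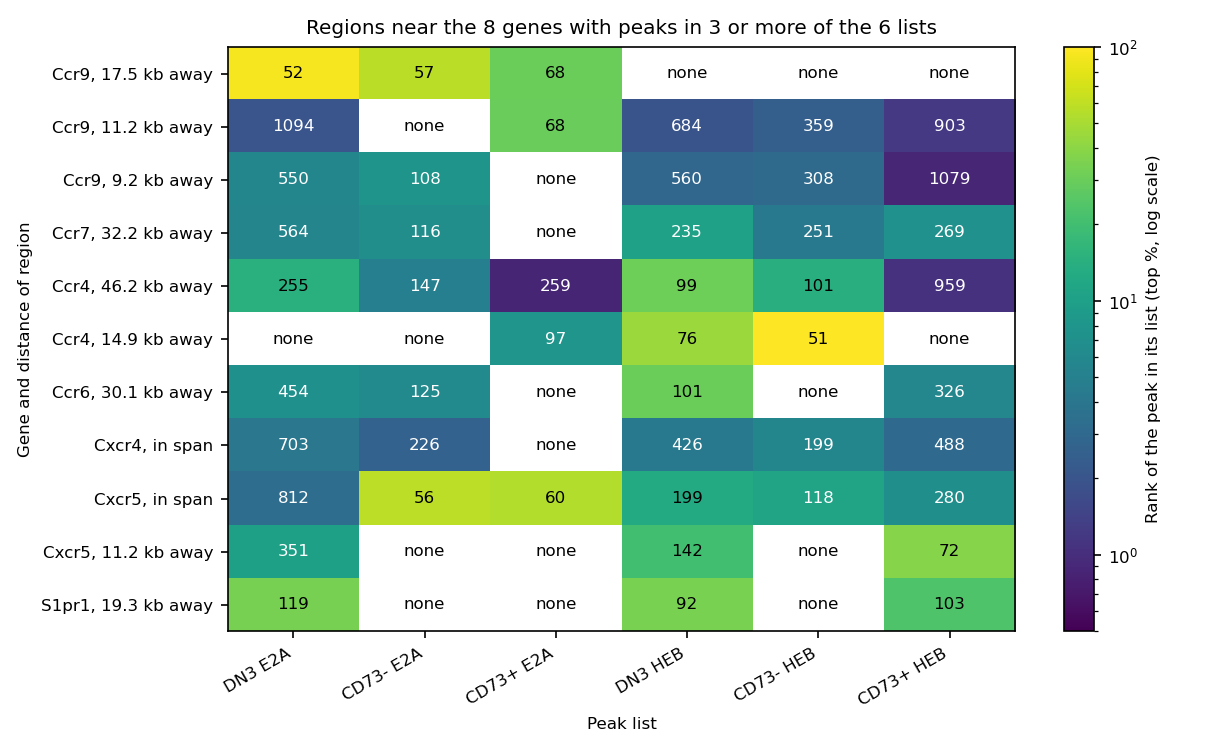
Scores (numbers) in the 11 regions near the receptors that had peaks in 3 or more lists, with the gene and the distance of the region from its span (kb), coloured by rank within each list (top %, log scale) and white where no peak was called. The CD73+ E2A column holds 5 peaks and the CD73+ HEB column 9, and the make-up of all such regions was not computed.

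**Figure D5:**
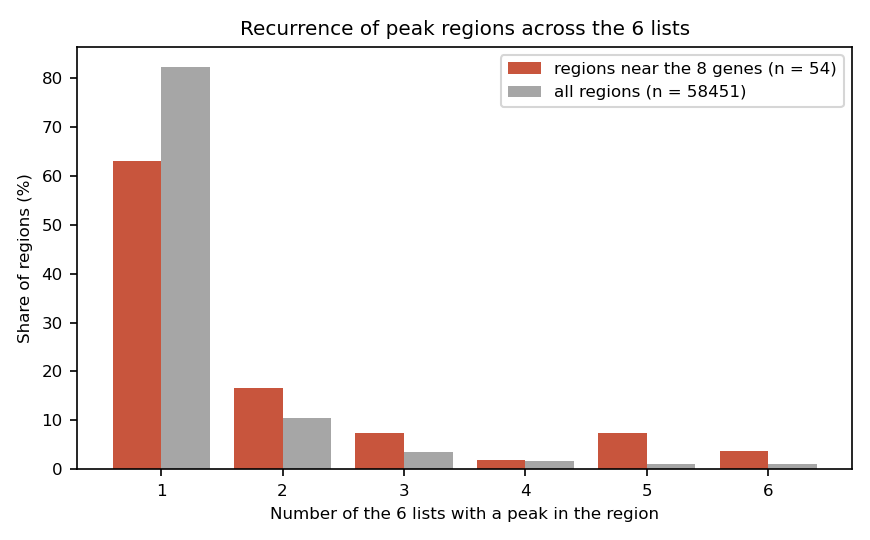
Share of merged regions (%) by the number of lists with a peak in them, for the 54 regions near the receptors (red) and all 58451 regions (grey). Regions found in 1 list made up 63.0% near the receptors and 82.3% of all.

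How far the factors met at the same place was compared within each stage. After merging the E2A and HEB peaks of a stage, 12 of 34 regions near the receptors held overlapping peaks of both in DN3 cells (35.3%), against 28.6% of all regions. In CD73- cells 5 of 22 did (22.7%), against 10.0%, and in CD73+ cells 3 of 26 did (11.5%), against 4.66%. The 3 joint CD73+ regions were the farther Ccr9 region, the Glb1 region counted for Ccr4, and the region in Cxcr5. In DN3 cells 9 of 10 strong HEB peaks of the receptors overlapped an E2A peak, against 85.1% over the whole list. The exception was the peak of 104 that lay 10.2 kb from Ccr7. In the other direction 10 of 15 strong E2A peaks overlapped a HEB peak (66.7%), below the 77.4% of the whole list.

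The stage comparison asked which DN3 peaks were overlapped by a peak in the CD73- or CD73+ cells. Such a DN3 peak is called kept, a word that names no cause. For E2A, 7 of 26 DN3 peaks at the receptors met a CD73- E2A peak (26.9%), where 13.0% of the whole list did, and 4 met a CD73+ E2A peak (15.4%), where 9.27% did. For HEB, 7 of 20 DN3 peaks overlapped a CD73- HEB peak (35.0%), against 19.4%, and 10 of 20 a CD73+ HEB peak, against 27.2%. Across factors, CD73+ HEB peaks lay over 12 of 26 DN3 E2A peaks (46.2%), against 27.9%. All 12 were strong, which is 12 of the 15 strong DN3 E2A peaks (80.0%), against 51.3%, and CD73+ E2A peaks lay over 3 (20.0%), against 15.2%. With the CD73+ lists exchanged, the 4 E2A overlaps became 12 and the 10 HEB overlaps became 5. The 3 strong DN3 E2A peaks without a CD73+ HEB peak were those of 476 in Glb1, 122 near Cxcr4 and 111 near Ccr6. In the other direction, 9 of 11 strong CD73+ HEB peaks overlapped a DN3 E2A peak (81.8%), against 85.2% over the list. The others were the peak of 377 in Glb1 and that of 232 inside Ccr7, which overlapped a DN3 HEB peak. All 5 strong CD73- E2A peaks overlapped a DN3 E2A peak, against 77.8% over the list, and all 6 strong CD73- HEB peaks a DN3 HEB peak, against 84.2%. The receptors' DN3 peaks had higher scores than their whole lists (above) and greater median widths, 687 against 617 bp for E2A and 959.5 against 721 bp for HEB, and the part of score and width in these shares was not tested.

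The other genes of the same pathways, 45 in all, were read within 10 kb of their spans. Those genes were chosen from general knowledge, but with earlier results of these data known. Comparisons of them with all genes, here and in the next paragraph, are therefore not independent of the data. The 9 ligand genes, which thymic epithelial and other stromal or myeloid cells express, had 1 peak in all, a DN3 E2A peak of 58.5 at Ccl17. This makes 1 of 9 for DN3 E2A, against 26.2% of all genes, and 0 of 9 in the other 5 lists, where 17.1% to 24.3% of all genes had one. Of 19 other chemokine and sphingosine-1-phosphate receptor genes, 6, 2 and 1 had an E2A peak in DN3, CD73- and CD73+ cells (31.6%, 10.5% and 5.26%) and 4, 1 and 3 a HEB peak (21.1%, 5.26% and 15.8%). Only the DN3 E2A share was above that of all genes, which depends on the genes compared. Among the 8241 genes with spans in the members' range, 19.0% had a DN3 HEB peak and 14.7% a CD73+ HEB peak. The DN3 HEB and CD73+ HEB shares were slightly above these. The CD73- E2A, CD73+ E2A and CD73- HEB shares stayed below the matched 11.0%, 14.2% and 11.3%. That span range was not set for these 19 genes. Over the 45 genes strong peaks were found at 6, 0 and 1 for E2A, where 13.4%, 3.06% and 4.0% of all genes had one, and at 6, 2 and 6 for HEB, where 10.5%, 4.08% and 7.43% did. Ccr8, a receptor of activated T cells, had a CD73+ HEB peak of 272 over a DN3 E2A peak of 202. Cxcr3, a receptor of effector cells, had a DN3 HEB peak of 198, Ackr3, a scavenger of CXCL12, a DN3 E2A peak of 212, and Cx3cr1 a DN3 E2A peak of 116. S1pr2, S1pr3, S1pr4 and S1pr5 had no peak within 10 kb in any list.

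Of the 17 genes of signalling and egress control, 10, 1 and 3 had an E2A peak in DN3, CD73- and CD73+ cells (58.8%, 5.88% and 17.6%), where 26.2%, 17.6% and 23.7% of all genes did. For HEB the counts were 8, 2 and 7 (47.1%, 11.8% and 41.2%), where 24.3%, 17.1% and 20.2% of all genes did. Klf2, which encodes a factor that switches on S1pr1, had HEB peaks of 236 in CD73+ and 155 in DN3 cells over one end of its span and an E2A peak of 61.5 in DN3 cells. Cd69, whose product removes S1PR1 from the cell surface, had HEB peaks of 104.6 in CD73+ and 109 in DN3 cells. Gnai2, the G protein subunit that couples these receptors, had a CD73+ HEB peak of 168, and the receptor kinase genes Grk2 and Grk6 had CD73+ HEB peaks of 142 and 133, with a DN3 E2A peak of 154 at Grk6. Coro1a, an actin regulator needed for thymic egress, had a CD73- HEB peak of 176 and DN3 peaks of 291 for E2A and 258 for HEB. Dock2, which drives migration below chemokine receptors, had a CD73+ E2A peak of 234 and, elsewhere, DN3 peaks of 219 for E2A and 311 for HEB. Klf2, Cd69, Gnai2, Grk2 and Grk6 had no CD73- E2A or CD73+ E2A peak of any score within 10 kb. Most genes lack one in either list: 17.6% and 23.7% of all genes had such a peak, and 3.06% and 4.0% a strong one.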

How the data were processed

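Peaks of E2A and HEB immunoprecipitations from DN3, CD73- and CD73+ cells were used. Bowtie, HOMER and MACS 1.4.2 were used on build mm10, per the submitters' processing notes, and per the labels duplicates were concatenated into 1 file per library. Each peak carries the authors' deposited MACS score, taken here as minus 10 times log10 of the p-value as MACS writes it, with a minimum of 50 and ties at 3100 in these lists. It was used unchanged. Reads and depth were not used here, and the input behind each list is not given in the sources used here.

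The 6 lists were matched to groups by their cell and antibody names, each as 1 pooled value, with 0 columns unmatched. Gene spans came from the RefSeq table of GRCm38.p6, which gives no exons, and promoter sequences from RefSeq of the same assembly. Peaks within 50 kb of a span were a gene's peaks, overlap meant at least 1 bp, and strong meant a score of at least 100. No test was made, since each group has 1 list. The shares over all 21887 protein-coding genes, over all promoters or over whole lists are given beside the main counts, and not beside most alternatives. The members and gene lists were chosen with earlier results of these data known. Each member was named, with its peaks that scored at least 100 or overlapped another list, and other pathway genes with a peak of at least 100 within 10 kb. An item that this rule names is not reported here, though it counts in its list's totals. A few lower peaks and pathway genes without peaks were named after their values were seen. The overlap and merging steps were tested on simulated data. Alternatives were a 10 kb window, the nearest gene, strong peaks alone, lists of equal length, no peaks over 3000 bp, midpoints within 200 bp, and exchanged CD73+ lists. Python 3.11.15, numpy 2.4.6, pandas 2.3.3 and matplotlib 3.10.9 were used.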

Additional observations from a re-analysis of the deposited data

How the results depend on the processing

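The 13 counts were recomputed under 77 alternatives, of which 49 stayed within 1.5 times the reported count and 28 did not. No peak in the regions near the receptors was wider than 2134 bp, so leaving out peaks over 3000 bp could move no count. Those 13 alternatives, among the 49, were the same by construction. Counting midpoints within 200 bp as shared moved no count past that limit. With a score of at least 100, members with a CD73+ E2A peak numbered 1, joint CD73+ regions 1, DN3 E2A peaks kept in CD73+ E2A 1 and DN3 HEB peaks kept in CD73+ HEB 6. With lists cut to 9407 peaks, 2 members had a CD73+ E2A peak and 2 DN3 E2A peaks were kept in CD73+ E2A. With a 10 kb window, members with a peak numbered 2 in CD73- E2A, 1 in CD73+ E2A, 5 in DN3 HEB and 3 in CD73- HEB. Joint regions then numbered 4, 2 and 1 in DN3, CD73- and CD73+ cells, DN3 E2A peaks kept in CD73- and CD73+ E2A 3 and 1, and DN3 HEB peaks kept in CD73- and CD73+ HEB 3 and 4. Counting only peaks nearest to a member gave 5 members for DN3 E2A, 4 for CD73- E2A and 5 for CD73- HEB, 7 joint DN3 and 3 joint CD73- regions, and 4 DN3 peaks kept in CD73- cells for each factor. For the 10 kb window and for strong peaks, the shares of all genes beside the member counts are given above. The other counts so far carry no share under the same setting, so they do not show whether an excess remained. Exchanging the CD73+ lists gave 8 members for E2A and 4 for HEB, and 12 and 5 DN3 peaks kept. A smaller window or fewer peaks lowers counts by construction. The exchange swaps the 2 CD73+ gene counts and leaves the joint CD73+ count as it was, also by construction. Its 12 and 5 kept peaks are the overlaps of DN3 E2A with CD73+ HEB and of DN3 HEB with CD73+ E2A. Whether the labels are in order was not tested. No paired analysis was possible because each group has 1 pooled list. No replicate could be left out for the same reason.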

Other observations

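Beyond 50 kb, peaks whose nearest protein-coding gene was still a member were called for Cxcr4 and S1pr1. Cxcr4 had 14 of them, on the side of its promoter. The highest was a DN3 E2A peak of 214 at 194.5 kb, at chromosome 1, 128786820 to 128787721, which overlapped a DN3 HEB peak of 95.5. A DN3 E2A peak of 118 lay 240.8 kb away over a DN3 HEB peak of 53.4. The CD73- and CD73+ peaks in that stretch scored 60.1 to 76.7 and each stood in 1 list. S1pr1 had 11 such peaks, 228 to 288 kb away, with a highest score of 82.4 in CD73+ E2A, and no strong one.

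Just outside the window of Cxcr5, 54.6 to 54.9 kb from the gene, a CD73+ HEB peak of 342 overlapped DN3 peaks of 246 for E2A and 138 for HEB. It scored above every CD73+ HEB peak counted for Cxcr5, but Ddx6 lay nearer to it than Cxcr5 did.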
